A study of Mus musculus with 16 samples.

Results

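Adenomas, the benign tumours of the intestinal lining, were compared here with normal lining of the ileum, the last stretch of the small intestine, in the mouse. The comparison took 11 of the 16 arrays of the series, 5 labelled adenoma and 6 labelled WT, and left the arrays labelled carcinoma out of the contrast. Its features were the 10833 of 12488 probe sets that carry a single gene symbol and are not hybridisation controls, and they stand for 8251 genes. Every array held RNA of ileal epithelial cells cut out of tissue by laser capture, amplified in 2 rounds and hybridised to an Affymetrix MG_U74Av2 oligonucleotide array. The labels give the groups only as WT and adenoma, after a prefix, m1, that they do not explain. The genotype or agent behind the adenomas, the strain, age and number of the mice, what promoter or allele drove the tumours and how regions were chosen for capture are missing from the labels and not given in the sources used here. No label ties an array to an animal. The p-values below measure the spread between captured samples, which may be technical, and they are too small if arrays of a group shared an animal. The number of arrays limits the precision.

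The lining of the small intestine is a single sheet of cells renewed from stem cells in the crypts. Its cells mature as they move up the villi into absorptive cells, mucus-filled goblet cells or hormone-releasing enteroendocrine cells, and Paneth cells stay at the crypt base. Wnt signalling through beta-catenin keeps crypt cells dividing, and in most intestinal adenomas it is switched on by loss of Apc, which otherwise targets beta-catenin for destruction. During repair after injury, the sheet is known to return for a time to a programme shared with the fetal gut, of which clusterin and annexin A1 are markers.

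Values are deposited signals on a linear scale in arbitrary units. For tests they were raised to a floor of 50.4, the 25th percentile of all values on the 11 arrays, and put on a log2 scale. A gene was tested where it lay above the floor on at least 5 of the 11 arrays, which 7096 of the 8251 genes did. A gene was called where its limma p-value, adjusted over all tested probe sets by the Benjamini-Hochberg method, was under 0.05. Of the 464 called genes, 5 higher and 8 lower were above the floor on no array of the other group, so they passed this filter through the group where they are high and had to differ; where named, they are described and support nothing. Log2 differences are adenoma minus WT, given ± SE with n = 5 adenoma and 6 WT arrays. Because of the floor they understate the change of a gene that is dim in a group. The captured cells carried markers of epithelium in both groups. The mean log2 signal of the epithelial markers lay between 12.51 and 13.02 on the adenoma arrays and between 12.25 and 13.44 on the WT arrays, and Epcam, a surface protein of epithelial cells, differed by -0.23 ± 0.26 (adjusted p = 0.635). The ileal bile acid binding protein Fabp6 was measured in both groups (-1.56 ± 0.57, adjusted p = 0.127). Of other ileal genes of bile acid handling, the receptor Nr1h4 and the exporter subunit Slc51a were called lower (2.40-fold and 4.08-fold).

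Several technical measures moved with the groups. Control transcripts added to each hybridisation had a mean log2 signal of 12.24 ± 0.82 (SD, n = 5) on the adenoma arrays and 13.74 ± 1.0 (SD, n = 6) on the WT arrays (two-sided exact permutation p = 0.0325, adjusted over 7 control measures 0.0379), and the WT arrays numbered 1, 2, 4 and 5 exceeded all 5 adenoma arrays. The Gapdh control probe sets, read as a log2 ratio of the 3′ over the 5′ end and a sign of RNA integrity and amplification, gave 4.52 ± 0.39 in WT (SD, n = 6) and 5.82 ± 0.24 in adenoma (SD, n = 5) (exact p = 0.00216, adjusted 0.0151), with every adenoma array above every WT array. The 3′ signal differed by 1.51 and the 5′ signal by 0.21. The same ratio for the actin control ran the other way, at 6.25 ± 0.17 in WT (SD, n = 6) and 5.87 ± 0.30 in adenoma (SD, n = 5; exact p = 0.0216, adjusted 0.0379). The Gapdh ratio and the group cannot be told apart by these arrays: with the ratio as a covariate 14 genes were called, and of the 464 called without it 453 kept their direction and 11 reversed. Without the 4 WT arrays of high control signal, 155 genes were called, 139 of them among those called on all arrays, and every called gene kept its direction. Beside the calls on all arrays, the number that held in this smaller fit and in each of the 11 fits that left out 1 array is given for the lists below. The lists were written with earlier results of these data known, so their counts are descriptions. Over all tested genes 3.24% were called higher and 3.30% lower, the shares against which each list count is to be read. Arrays of the same group correlated at 0.848 to 0.953 within adenoma and at 0.778 to 0.915 within WT, over all probe sets.

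Adenoma and WT differed in 464 of the 7096 tested genes (6.54%), of which 230 were higher in adenoma (3.24%) and 234 lower (3.30%). More of the large differences were rises: 80 genes rose and 42 fell by at least 4-fold, 30 and 7 by at least 8-fold, and 14 and 1 by at least 16-fold. In 183 of the higher and 144 of the lower genes the 5 adenoma arrays did not overlap the 6 WT arrays, against 227 (3.20%) and 207 (2.92%) of all tested genes. In each of the 11 fits that left out 1 array, 142 of the higher and 114 of the lower genes were called, and without the 4 WT arrays 96 and 43. Counted over probe sets, 564 of 8744 were called (6.45%), 274 higher (3.13%) and 290 lower (3.32%). Fewer genes were called lower without adenoma 2 (148), adenoma 3 (144) or adenoma 5 (140). How the calls split between higher and lower varied with how the arrays were scaled. Of the calls on deposited values 49.6% were higher, and the median gene differed by -0.13. Quantile normalization moved these to 63.4% and -0.02, and aligning the array medians to 75.6% and 0.14. Under these scalings 463 and all 464 called genes kept their direction. In captured tissue, fewer cells of a type and less RNA per cell cannot be told apart.

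**Figure D1:**
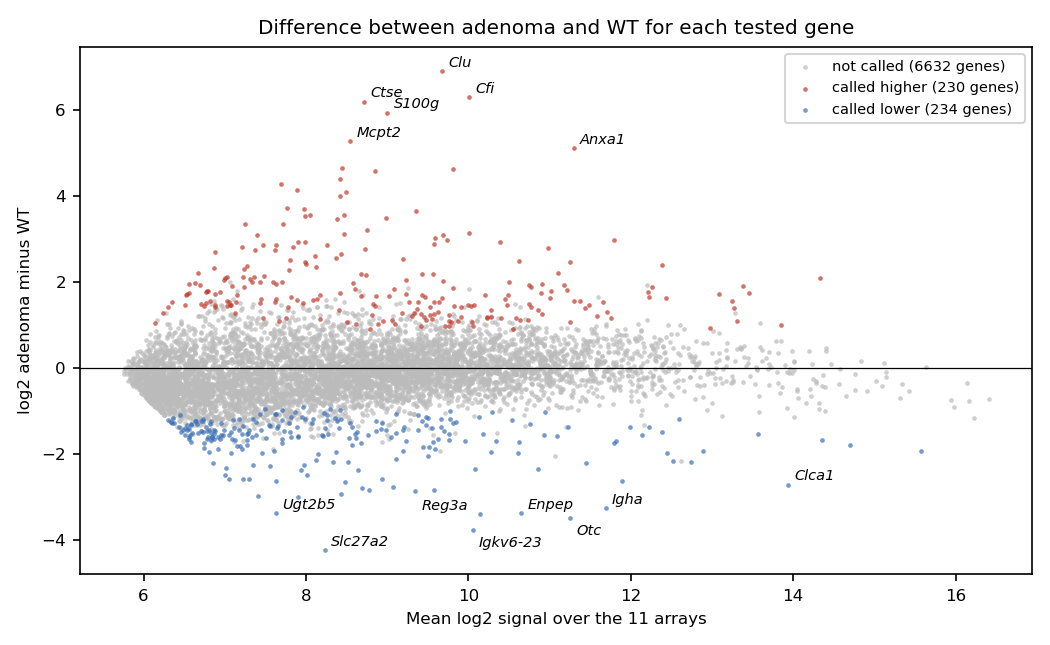
Log2 difference between adenoma and WT (vertical axis) against mean log2 signal over the 11 arrays (horizontal axis) for each of the 7096 tested genes, 1 point per gene. Red points are the 230 genes called higher and blue points the 234 called lower. Clu, at 6.90, is the highest point and Slc27a2, at -4.22, the lowest.

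The largest rises were those of Clu, Cfi, Ctse and S100g, all of them low in WT. Clusterin (Clu), a secreted chaperone, gave 11256, 12909, 10439, 11120.4 and 10154 on adenoma arrays 1 to 5 and 24.8 to 234 (median 66.9) on the WT arrays. All adenoma arrays were alike and lay far above the WT arrays, a 120-fold rise by this probe set (6.90 ± 0.41, limma adjusted p = 8.07e-08). The other probe set of Clu was also called, with a smaller rise of 4.085 ± 0.28. Complement factor I (Cfi), the protease that inactivates deposited complement, gave 11374, 10477, 12589, 9546 and 12146 in adenoma and 33.7 to 342 (median 197) in WT. It too had no overlap and rose 79-fold (6.30 ± 0.47), the only call among 16 tested complement genes, and it held in all the fits that left arrays out.

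Cathepsin E (Ctse), an intracellular aspartic protease typical of stomach, gave 4023, 4389, 6818, 3656 and 3675 in adenoma against 18 to 129 (median 31.6) in WT. Its lowest adenoma array was far above its highest WT array (6.19 ± 0.31, limma adjusted p = 3.33e-08), although only 1 of its 3 tested probe sets was called. S100g, the calbindin of the intestine, which carries calcium across absorptive cells, gave 6983, 8068, 1662, 5684 and 4985 in adenoma and 4.9 to 142 (median 64) in WT. Adenoma 3 was the lowest of the group and still above every WT array (5.94 ± 0.44). The receptor that drives S100g in normal gut, the vitamin D receptor Vdr, moved the other way: it gave 131, 85.3, 187, 125 and 148 in adenoma and 469.8 to 1562 (median 716) in WT, with no overlap (-2.64 ± 0.34, limma adjusted p = 0.000191).

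Saa3 and Igfbp1 also rose more than 16-fold. Saa3, an acute phase serum amyloid, gave 864, 1064, 1304, 1025 and 1542 in adenoma against 11.9 to 163 (median 38.5) in WT. Igfbp1, a binding protein of insulin-like growth factors, gave 1909.9, 1417, 718, 612 and 1049 in adenoma and 8.5 to 74 (median 17.4) in WT. The groups were apart in both genes (4.14 ± 0.34 and 4.28 ± 0.31), and both calls held in the fit without the 4 WT arrays. Wfdc18, a small secreted protein of the whey acidic protein family, rose by 4.58 ± 0.46. Ggh, which trims the glutamate tail of folates, rose by 4.09 ± 0.41, and the organic anion transporter family member Slco5a1 by 4.01 ± 0.43. The iron-binding defence protein lactoferrin (Ltf) rose by 2.76 ± 0.39 and the secreted phospholipase Pla2g2a by 3.13 ± 0.43. As lists, antimicrobial and acute phase proteins had 3 of 21 higher and 4 lower (median -0.36), of which 3 and 2 held with each array left out and 3 and 1 without the 4 WT arrays. The IGF axis had 2 of 14 higher (median -0.24), of which 1 held in either case.

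**Figure D2:**
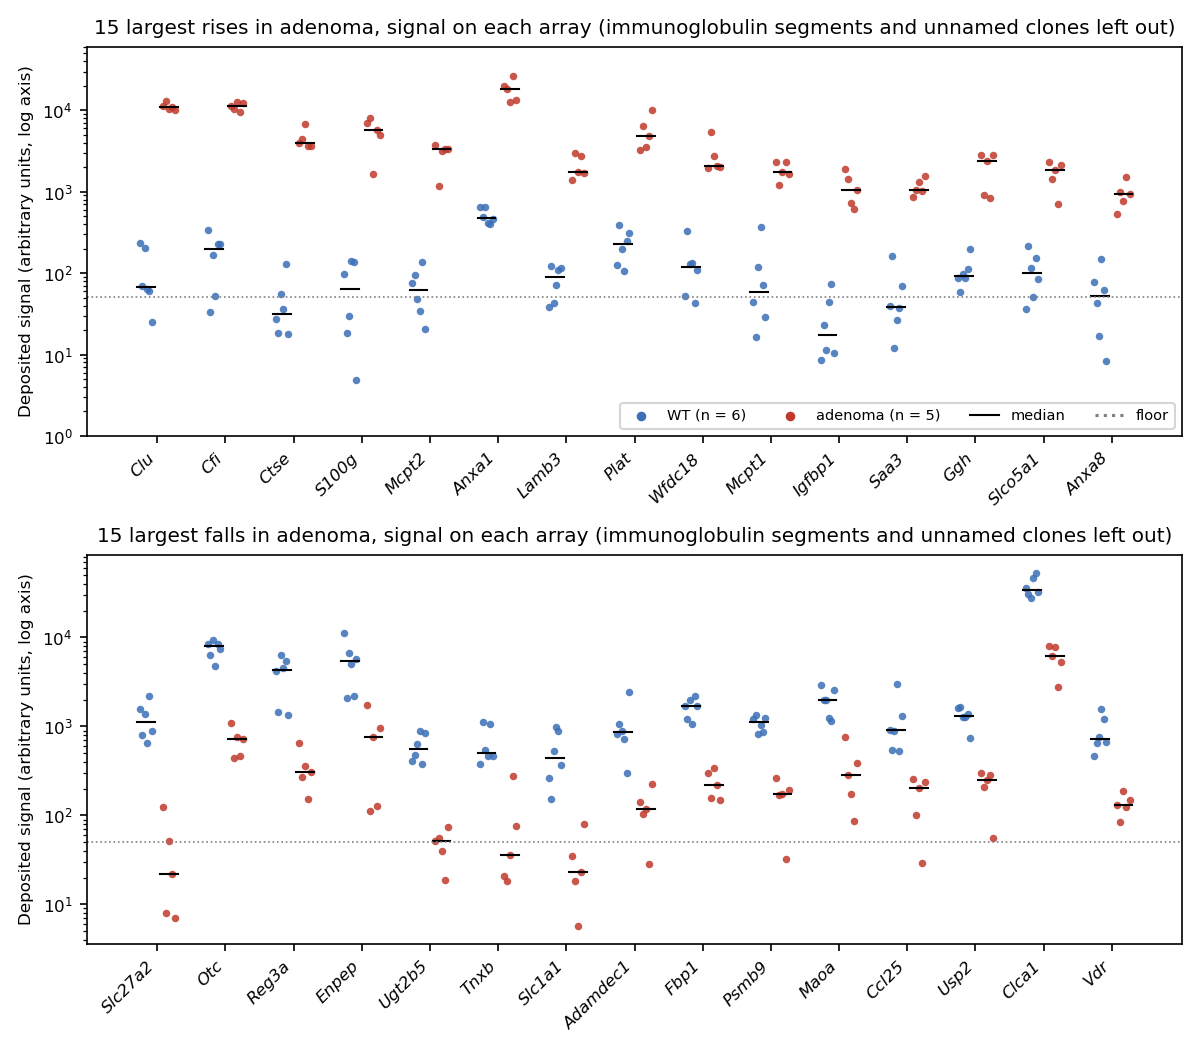
Deposited signal on each array (log axis, arbitrary units) for the 15 genes with the largest rise (top) and the 15 with the largest fall (bottom) among called genes, leaving out immunoglobulin segments and unnamed clones. Blue points are the 6 WT arrays, red points the 5 adenoma arrays, black bars group medians and the dotted line the floor of 50.4. The red and blue points of Clu are separated from 234 to 10154, and no gene in the top panel overlaps.

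The group of genes listed as markers of the fetal and the regenerating gut was mostly higher. Of 19 tested members 15 were higher, beside 3.24% of all genes, and none was lower. The list was written with earlier results of these data known, so this share describes the members chosen and supports nothing further. The median log2 difference was 1.80 against -0.13 over all genes, 1.93 after quantile normalization and 1.83 without the 4 WT arrays. Of the 15 calls, 11 held with each array left out and 10 without the 4 WT arrays. Besides Clu, Ctse and the annexins, the group held the interleukin 1 receptor antagonist Il1rn, the decoy receptor osteoprotegerin (Tnfrsf11b) and the gap junction protein connexin 43 (Gja1). Il1rn gave 457, 266, 400.1, 377 and 329.9 in adenoma and 23 to 128 (median 64.8) in WT (2.30 ± 0.31). Tnfrsf11b gave 1520.4, 886, 515, 564 and 1558 against 6.7 to 234 (median 169) (2.87 ± 0.48), with every adenoma array above every WT array in both genes. The 4 members that did not pass were Ereg (0.15 ± 0.44), Ly6d (0.33 ± 0.45), Ccn1 (0.36 ± 0.33) and Sprr1a (1.28 ± 0.37, adjusted p = 0.0545).

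Annexins bind membrane phospholipids in the presence of calcium, and 6 of the 9 tested were higher in adenoma. Their median log2 difference was 1.73, and all 9 lay above 0. Of the 6 calls, 5 held with each array left out and 4 without the 4 WT arrays. Annexin A1 (Anxa1), which restrains inflammation and is released by injured epithelium, gave 19792, 18441, 12599, 26223 and 13402 in adenoma and 397 to 659 (median 478) in WT. It was above the floor in both groups, and the lowest adenoma array was still far above the highest WT array (5.12 ± 0.28, limma adjusted p = 5.18e-08). Anxa8 gave 538, 989, 769, 1506 and 926 in adenoma and 8.4 to 149 (median 52.8) in WT (3.73 ± 0.35), and Anxa3 1122, 781, 1080.2, 554 and 2062 against 16.1 to 124 (median 83.8) (3.69 ± 0.38). Anxa2, the cell surface partner of S100a10 and of plasminogen, was already bright in WT at 3265 to 9570.2 (median 4821) and gave 11799, 15295, 14077, 21644 and 23723 in adenoma (1.73 ± 0.33). Anxa5 rose by 1.70 ± 0.30. Anxa10 rose by 1.80 ± 0.43, a call lost without adenoma 3 (adjusted p = 0.0587). Anxa4 (0.49 ± 0.26), Anxa6 (0.50 ± 0.60) and Anxa7 (0.18 ± 0.52) did not pass.

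Change in the calcium-binding S100 proteins was narrow, with S100g and S100a6 (2.18 ± 0.33) called among 10 tested members, and both held in the fits that left arrays out. Of 11 tested cathepsins, the lysosomal proteases, Ctse, Ctsl and Ctsd were higher. All 3 held with each array left out and 2 without the 4 WT arrays. Cathepsin L (Ctsl) gave 6983, 1890.2, 2863, 852 and 3658 in adenoma and 23.5 to 341 (median 274) in WT (3.65 ± 0.56). The groups were apart, and adenoma 4 was the lowest of the adenomas. Cathepsin D (Ctsd), bright in WT at 617 to 1089.5 (median 907), gave 2065, 2541, 1605, 1711 and 1976 in adenoma (1.19 ± 0.25). Cathepsin B, another lysosomal protease, differed by 0.03 ± 0.32 (Ctsb, adjusted p = 0.972).

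The chains of laminin, the cross-shaped protein of the basement membrane, split by chain. The epithelial chains Lamb3, Lama3 and Lama5 rose, and Lama2, the chain of muscle basement membrane, fell, among 9 tested chains. Lamb3 gave 1376, 3022, 1729, 2725 and 1699 in adenoma and 38.3 to 122.8 (median 90.1) in WT (4.64 ± 0.34, limma adjusted p = 8.05e-07). Lama3, which pairs with Lamb3 in laminin 332, gave 717, 617, 784, 732 and 795 against 32.3 to 314 (median 75.6) (2.94 ± 0.44). Every adenoma array was above every WT array in both genes. Lama5, the main alpha chain under the villus epithelium, gave 309, 485, 619, 502 and 495 against 30.6 to 119.8 (median 70.6) (2.75 ± 0.29). Lama2 gave 63.1, 92.3, 56.9, 23.9 and 93.8 in adenoma and 122 to 277 (median 225) in WT, all adenoma arrays lying below the WT arrays (-1.55 ± 0.30). All 4 calls held with each array left out and without the 4 WT arrays. Lamb1 (0.03 ± 0.28), Lama1 (0.02 ± 0.42), Lamc1 (0.44 ± 0.28), Lamb2 (1.05 ± 0.35) and Lama4 (-0.67 ± 0.47) did not pass.

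**Figure D3:**
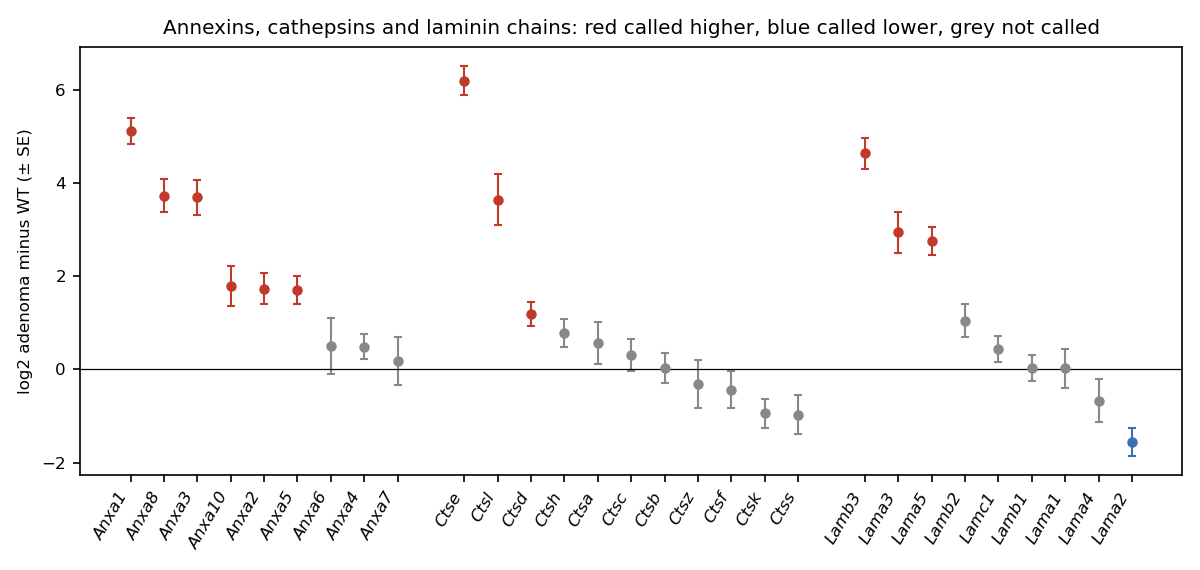
Log2 difference, adenoma minus WT, with its SE (bars) for the tested annexins (left), cathepsins (middle) and laminin chains (right), ordered by difference within each family. Red points were called higher, the blue point, Lama2 at -1.55, was called lower and grey points were not called.

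Few other genes of adhesion and cell shape were called. The integrin chain Itgav, which binds matrix proteins carrying the RGD sequence, gave 5605, 5447, 4879, 4434 and 3911 in adenoma against 918 to 1821 (median 1249) in WT (1.94 ± 0.26) and was the sole integrin chain called higher of 17, with Itga4 called lower. The call of Itgav held in the fits that left arrays out and that of Itga4 did not. Claudin 4 (Cldn4), a tight junction protein, rose by 2.56 ± 0.49, and with Gja1 made up the calls among 23 junction genes, of which 2 held with each array left out and 1 without the 4 WT arrays. The basement membrane collagen Col4a1 rose by 1.53 ± 0.30 and the actin-binding tropomyosin Tpm4 by 1.77 ± 0.28. Of 27 tested keratins, the filament proteins of epithelium, 3 were higher, and 1 call held with each array left out and 1 without the 4 WT arrays. Krt6a, a keratin of stressed epidermis, gave 1440.0, 2001, 1032, 1267 and 1612 in adenoma and 366 to 714 (median 445) in WT (1.55 ± 0.29). The calls of Krt7 (1.40 ± 0.35) and Krt18 (1.38 ± 0.35) were fragile. That of Krt7 was lost with any 1 of WT 1, 2, 3 and adenoma 2, 4, 5 left out (adjusted p = 0.0507 to 0.085), and that of Krt18 with the same arrays left out 1 at a time (adjusted p = 0.0551 to 0.0915). The main keratins of the gut lining were bright in both groups and did not pass: Krt8 (-0.02 ± 0.50), Krt19 (0.11 ± 0.64) and Krt20 (-0.40 ± 0.31). The surface glycoproteins Cd24a and prominin 1 (Prom1), also used as stem cell markers, rose by 2.41 ± 0.30 and 2.48 ± 0.37. As a list, intestinal stem cell markers had 3 of 18 higher and 1 lower, with a median of 0.38, and 14 were not called. Of these calls 2 and 0 held with each array left out and 2 and 1 without the 4 WT arrays. In this list 1 member passed the filter through 1 group only.

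Several proteases that act outside the cell rose in adenoma, as did the receptor of another protease, the urokinase activator. Of 24 tested metalloproteinases 5 were higher (Mmp7, Mmp10, Mmp13, Mmp14 and Adam8) and 2 lower, beside 3.24% and 3.30% of all genes. Of 18 genes of plasminogen activation and clotting 4 were higher. Of these 4 calls, 2 held with each array left out and 3 without the 4 WT arrays. Tissue plasminogen activator (Plat), which turns plasminogen into plasmin, gave 3282, 6450.5, 3547, 4859 and 10228 in adenoma and 107 to 388 (median 225) in WT (4.63 ± 0.40, limma adjusted p = 4.66e-06). Plaur, the receptor of the urokinase activator, gave 196, 291, 292, 389.9 and 275 against 16.2 to 155 (median 33) (2.10 ± 0.34). No WT array reached an adenoma array in either gene. Mmp7, the matrilysin that activates Paneth cell defensins and is known from intestinal tumours, gave 3927, 6640.4, 4560.5, 8679.7 and 8649 in adenoma and 521 to 2536 (median 1327) in WT (2.46 ± 0.42). Mmp10, a stromelysin, gave 295, 374, 301, 788 and 398 against 24 to 135 (median 93.7) (2.13 ± 0.34), and Mmp13, a collagenase, gave 330.4, 301, 224, 244 and 875 against 14.6 to 103 (median 97.2) (1.99 ± 0.36). The adenoma arrays lay above the WT arrays in all 3 genes. The 5 higher calls of metalloproteinases held with each array left out and 2 of them without the 4 WT arrays, and of the 2 lower calls 1 held in either case. Adamdec1, a metalloproteinase of gut macrophages, went the other way with 141, 104, 117, 28.2 and 228 in adenoma and 304 to 2442 (median 856) in WT (-2.92 ± 0.47).

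The promoters of Mmp7, Mmp10, Mmp13 and Plaur are shown because all 4 genes rose and each holds the letters TGANTCA, the consensus of AP-1, the dimer of Jun and Fos proteins. They were chosen after their values and sequences were seen. Each is the 250 bases before the annotated start of the gene, from RefSeq on GRCm38.p6, plus strand, with the match in capitals; Mmp7 has 2 annotated starts. The windows are chr9:7691840-7692089 for Mmp7, chr9:7502092-7502341 for Mmp10, chr9:7272264-7272513 for Mmp13 and chr7:24462233-24462482 for Plaur.
Mmp7: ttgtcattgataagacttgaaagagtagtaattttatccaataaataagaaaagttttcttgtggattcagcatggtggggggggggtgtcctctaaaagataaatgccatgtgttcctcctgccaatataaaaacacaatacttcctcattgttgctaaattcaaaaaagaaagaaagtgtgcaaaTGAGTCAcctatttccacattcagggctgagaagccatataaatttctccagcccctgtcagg
Mmp10: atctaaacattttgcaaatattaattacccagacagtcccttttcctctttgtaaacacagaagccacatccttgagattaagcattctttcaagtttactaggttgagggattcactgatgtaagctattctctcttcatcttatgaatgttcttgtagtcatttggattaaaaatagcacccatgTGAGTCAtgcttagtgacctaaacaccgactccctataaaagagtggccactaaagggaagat
Mmp13: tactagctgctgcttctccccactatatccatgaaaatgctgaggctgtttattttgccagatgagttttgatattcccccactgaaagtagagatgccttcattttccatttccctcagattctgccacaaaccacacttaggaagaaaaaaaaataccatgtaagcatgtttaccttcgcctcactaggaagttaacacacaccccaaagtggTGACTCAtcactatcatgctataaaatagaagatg
Plaur: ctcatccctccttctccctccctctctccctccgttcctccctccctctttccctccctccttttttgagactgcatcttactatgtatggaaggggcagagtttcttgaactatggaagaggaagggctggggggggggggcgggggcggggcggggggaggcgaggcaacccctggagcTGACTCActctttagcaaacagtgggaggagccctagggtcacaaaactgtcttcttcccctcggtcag
The match begins 63 bases before the start in Mmp7 and in Mmp10, 35 in Mmp13 and 69 in Plaur. On either strand, TGANTCA was found in 6.75% of 32851 mouse promoter windows of this length. It was found in 24 of the 176 genes called higher that had a window (13.6%), in 16 of 181 called lower (8.84%) and in 377 of 5703 tested genes (6.61%). The TCF/LEF letters CTTTGAT were found in 7.39% of higher genes, 4.42% of lower genes and 2.89% of tested genes, and in 3.21% of all single windows. The TATA box letters TATAAA were also more frequent in the higher genes, at 14.2%, against 8.84% of lower and 6.84% of tested genes. The HNF4 letters CAAAGTCCA were found in 0.57% of higher, 2.21% of lower and 0.49% of tested genes. The shares of the 4 motifs were not tested. These shares describe letters, not binding, and overlaps between the motifs were not removed.

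Among the immediate early genes, which include the AP-1 proteins, 5 of 28 were higher and none lower, and 2 calls held with each array left out and 2 without the 4 WT arrays. Jun gave 916, 613, 591, 355 and 1185 in adenoma and 86.8 to 200.5 (median 122) in WT, with every adenoma array above every WT array (2.34 ± 0.34, limma adjusted p = 0.000678). The stress-induced factor Atf3 gave 1665, 1567, 936, 802 and 1053 against 155 to 531 (median 395) (1.73 ± 0.35). Jun and Atf3 were the 2 that held with each array left out. The call for Gadd45b was lost with any 1 of WT 1, 2, 4 and adenoma 2, 3, 4 left out (adjusted p = 0.0685 to 0.0883), and that for Nr4a1 with any 1 of WT 1, 2, 3 and adenoma 1, 2, 5 left out (adjusted p = 0.0546 to 0.104). Without the 4 WT arrays Jun had an adjusted p of 0.0509 and Atf3 of 0.097.

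Few genes of the Wnt pathway itself were called, and some of its targets rose. At an unadjusted limma p under 0.05, 7 of the 46 pathway genes tested were higher and 5 lower. Over all 7096 tested genes, 1538 had such a p and 6.54% were called. Of 46 ligands, receptors and pathway proteins 1 was called, the secreted inhibitor family member Dkk3, which gave 640.0, 526, 555, 487 and 709 in adenoma and 54.6 to 234 (median 92.4) in WT (2.52 ± 0.39), a call that held in the fits that left arrays out. Apc itself differed by -0.80 ± 0.39 (adjusted p = 0.254) and beta-catenin (Ctnnb1) by 1.01 ± 0.44 (adjusted p = 0.202), neither past the threshold. A 3′ probe set does not read most mutations of Apc. Of 24 Wnt target genes 7 were higher and none lower, with a median of 0.31, and 1 of the 24 passed the filter through 1 group only. Of these 7 calls 5 held with each array left out and 1 without the 4 WT arrays. Jun, Plaur, Mmp7 and the differentiation inhibitor Id2 (1.95 ± 0.37) were among them. The textbook targets did not pass: Myc (0.94 ± 0.37), Ccnd1 (0.21 ± 0.29), Axin2 (-0.59 ± 0.35), Lgr5 (0.62 ± 0.43) and Ephb3 (0.41 ± 0.36). No Eph receptor or ephrin, guidance proteins that sort crypt cells, was called among 14 in the limma fit, and 2 had an unadjusted p under 0.05, 1 in each direction. Tcf7l2, the DNA-binding partner of beta-catenin in gut, was lower on every adenoma array than on any WT array but did not pass (-0.49 ± 0.24, adjusted p = 0.249).

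Follistatin (Fst), which binds activin, gave 347, 483, 383, 199.8 and 399 in adenoma and 33.5 to 171 (median 78.5) in WT (2.07 ± 0.39). The cell cycle inhibitor Cdkn1c, which encodes p57, gave 1863, 1186, 1205, 853 and 1106 against 19.7 to 309.9 (median 241) (2.77 ± 0.44), and was the sole call among 45 cyclins, kinases and inhibitors, which held in the fits that left arrays out. The adenoma arrays were above the WT arrays in both genes. Hif1a, the oxygen-regulated factor, gave 12609.9, 11744, 13547, 6701 and 11779 in adenoma and 442 to 2326 (median 1862) in WT (2.98 ± 0.42). With its targets Ddit4 (1.65 ± 0.31) and the glucose transporter Slc2a1 (1.46 ± 0.32) it was among 4 of 21 hypoxia genes called higher, of which 3 held with each array left out and 1 without the 4 WT arrays.

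Few genes of cell division were called, and they were not tested as a group. None of 43 tested DNA replication genes was called by limma, and at an unadjusted p under 0.05 there were 2 higher and 3 lower. Their median log2 difference was 0.05, 0.22 after quantile normalization and 0.33 with array medians aligned. Of 36 mitosis genes 1 was called, the spindle checkpoint protein Mad2l1, and that call was lost with any 1 of WT 1, 2, 4 and adenoma 1, 2, 3, 4, 5 left out (adjusted p = 0.0587 to 0.0948). At an unadjusted p under 0.05, 4 mitosis genes were higher and 0 lower. The median of the mitosis list was 0.115, 0.41 with array medians aligned and -0.13 without the 4 WT arrays. The division markers Pcna (0.63 ± 0.30) and Mki67 (-0.20 ± 0.34) did not pass. None of 35 ribosomal proteins was called (unadjusted, 1 higher and 2 lower), and none of 74 subunits of oxidative phosphorylation (unadjusted, 0 higher and 12 lower). The subunits had a median of -0.32, which was -0.03 with array medians aligned.

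Among transcription factors that set gut identity, 3 rose and 1 fell of 30, all 4 calls holding with each array left out and 2 and 1 without the 4 WT arrays. Sox17, a factor of endoderm, gave 1212, 1225, 1746, 1593 and 1604 in adenoma and 69.3 to 264 (median 174) in WT (3.22 ± 0.34, limma adjusted p = 3.25e-05). Pitx1, a hindlimb and oral factor, gave 1489.6, 1624, 873, 1326 and 1471 against 279.8 to 575 (median 468) (1.66 ± 0.28), and Foxa1, a pioneer factor of endoderm, gave 1048, 1370.4, 897, 1057 and 1222 against 253 to 573 (median 346) (1.54 ± 0.28). All 3 had no overlap between groups. Sox17 is also a marker of endothelium, where Cdh5, the cadherin of vessels, rose as well (2.17 ± 0.36). They were the 2 calls among 18 endothelial markers, held in the fits that left arrays out. Pecam1 (-0.55 ± 0.26), Tie1 (-0.45 ± 0.40) and Kdr (0.78 ± 0.42) did not pass, and the mean log2 level of the list ran from 7.63 to 8.07 in adenoma and from 7.34 to 7.95 in WT. The part of endothelial cells in the rise of Sox17 was not tested. Cdx1 and Cdx2, the master factors of intestine, were below WT on average without passing (-1.56 ± 0.49, adjusted p = 0.0736, and -0.94 ± 0.35, adjusted p = 0.135).

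Nuclear receptors, the ligand-gated factors that tune absorptive cells to vitamins, bile acids and lipids, fell more often than they rose. Of 31 tested 6 fell, beside 3.30% of all genes, and 1 rose, with a median of -0.66 against -0.13 over all genes. The median was -0.46 with array medians aligned and -0.48 without the 4 WT arrays. Besides Vdr, Nr5a2 (LRH-1), which drives crypt renewal and gut steroid synthesis, gave 237, 248, 196, 182 and 210.4 in adenoma and 532 to 923 (median 633) in WT (-1.61 ± 0.24). Ppara, the fatty acid sensor, gave 246, 204, 304, 242 and 134 against 430.3 to 1103 (median 608) (-1.53 ± 0.31), and the bile acid receptor FXR (Nr1h4) gave 556, 594, 694, 404 and 576 against 769.8 to 1867 (median 1511) (-1.26 ± 0.29). The adenoma arrays lay below the WT arrays in all 3. The basolateral bile acid exporter subunit Slc51a, a target of FXR, gave 384, 339.9, 308, 288 and 382 in adenoma and 896 to 3178 (median 1276) in WT (-2.03 ± 0.31). Calls for these 4 receptors held with each array left out, and those for Vdr and Nr5a2 held without the 4 WT arrays as well. The 1 rise was lost when single arrays were left out. The clock repressor Nr1d1 was called lower, and lost the call with any 1 of WT 1, 2, 3, 4, 5 and adenoma 1, 2, 3, 5 left out (adjusted p = 0.0556 to 0.132).

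**Figure D4:**
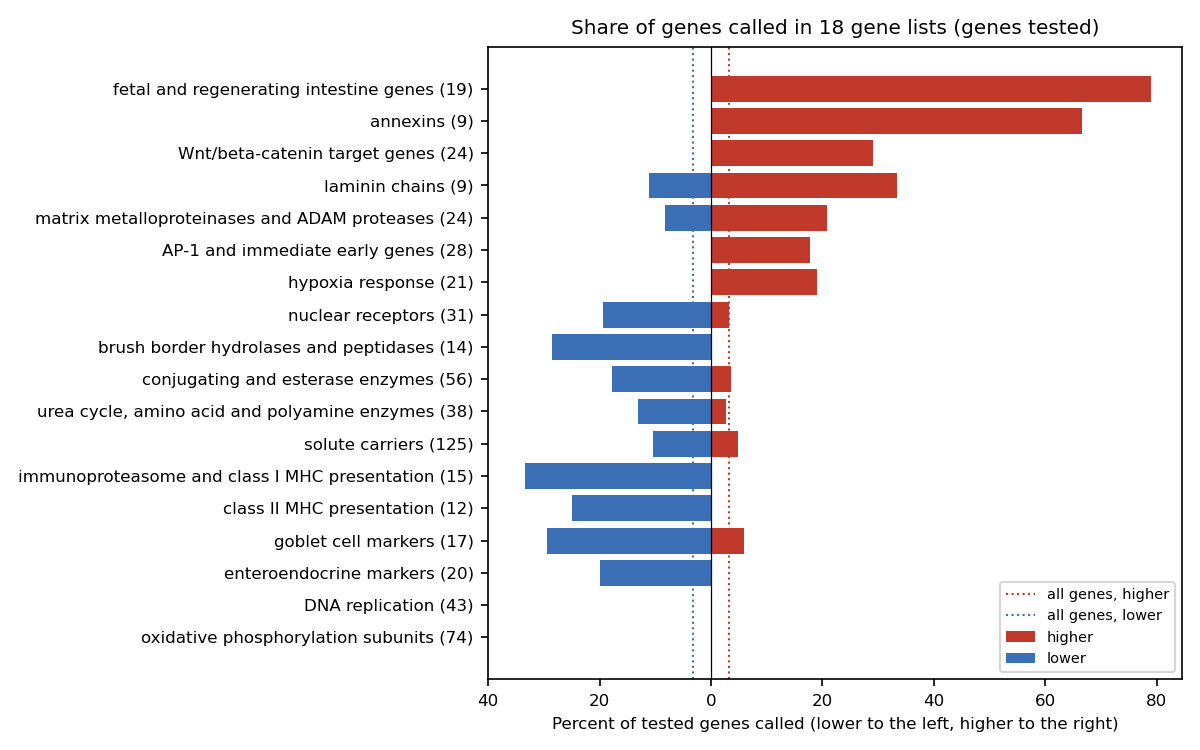
Percent of the tested genes of 18 gene lists that were called higher (red, to the right) or lower (blue, to the left) in adenoma, with the number tested in brackets. The dotted lines are the shares over all genes, 3.24% higher and 3.30% lower. Fetal and regenerating genes (15 of 19) have the longest red bar.

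Slc27a2, Otc and Cps1, of fatty acid uptake and the urea cycle, fell. Slc27a2, which takes up and activates very long chain fatty acids, gave 126, 8, 51.4, 21.8 and 7 in adenoma and 659.7 to 2177 (median 1128) in WT. It had the largest fall of all called genes, 18.7-fold lower (-4.22 ± 0.37, limma adjusted p = 4.92e-06), and 3 of the adenoma arrays read below the floor. Otc, the mitochondrial urea cycle enzyme with which the gut makes citrulline, gave 1083, 445, 759, 460.5 and 725 against 4811 to 9385 (median 7929) (-3.47 ± 0.30). It stayed well above background in adenoma, with no overlap. Cps1, the enzyme upstream of Otc, gave 5590.0, 1165, 4677, 1396 and 2794 in adenoma and 7702 to 18245 (median 10745) in WT (-2.16 ± 0.43), with adenoma 2 and adenoma 4 the lowest.

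Of 38 genes of the urea cycle, amino acids and polyamines, 5 were lower and 1 higher, and the 2 arginases moved apart. Of these calls 3 and 1 held with each array left out and 2 and 1 without the 4 WT arrays. Arg2, the mitochondrial form, gave 263, 137, 152, 133 and 140.5 in adenoma and 287 to 1903 (median 544) in WT (-1.95 ± 0.41). Arg1, the cytosolic form of liver and alternatively activated macrophages, gave 252, 229, 346, 335 and 265 against 35.7 to 154 (median 65.3) (1.92 ± 0.32). Arg1 had every adenoma array above every WT array, and Arg2 every adenoma array below. The pair was chosen after its values were seen, as were the next pairs. The glucose carrier Slc2a1 rose (1.46 ± 0.32) and the fructose carrier Slc2a5 was lower (-1.55 ± 0.37), a call lost with any 1 of adenoma 2, 3, 5 left out (adjusted p = 0.0627 to 0.072). Of the mitochondrial ADP/ATP carriers, Slc25a4, the muscle form, rose (2.00 ± 0.38) and Slc25a5 had -1.66 ± 0.39 (adjusted p = 0.0194), a call lost when single arrays were left out.

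Sugar metabolism changed at a few steps. Of 33 genes of glycolysis and gluconeogenesis, 3 were higher and 3 lower, of which 3 and 1 held with each array left out and 0 and 1 without the 4 WT arrays. Fbp1, which commits to gluconeogenesis, gave 298, 155, 337, 219.5 and 148 in adenoma and 1065 to 2197 (median 1710.5) in WT (-2.86 ± 0.31, limma adjusted p = 3.26e-05). Pkm, the pyruvate kinase of most growing tissues, gave 3009, 3867, 3549.5, 5442 and 2585 against 425 to 1849 (median 1141) (1.90 ± 0.38), and Pgam1 gave 6169, 5863, 4817, 4595 and 5951 against 1416 to 2921 (median 2623) (1.30 ± 0.28). The groups were apart in all 3 genes. These calls held with each array left out, and without the 4 WT arrays the call of Fbp1 held, with adjusted p-values of 0.0998 for Pkm and 0.165 for Pgam1. Sterol and fatty acid synthesis had 21 of 25 tested genes above 0 and a median of 0.75 but 1 call, the malic enzyme Me1, lost with any 1 of WT 3, 4, 5, 6 and adenoma 1, 2, 3, 5 left out (adjusted p = 0.0512 to 0.115). At an unadjusted p under 0.05, 10 of the 25 were higher and 1 was lower.

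Of 125 tested solute carriers 13 were lower and 6 higher, beside 3.30% and 3.24% of all genes. This balance turned with the arrays and the scaling. Of these calls 4 lower and 6 higher held with each array left out and 2 and 4 without the 4 WT arrays. With array medians aligned 6 of the lower and 6 of the higher calls held, and the median was 0.06. Slc1a1, the apical carrier of glutamate and aspartate, gave 35.3, 18.5, 5.7, 23.2 and 79.4 in adenoma and 152 to 979 (median 448) in WT (-2.98 ± 0.43). Slc1a4, a carrier of alanine, serine and cysteine, moved the other way, with 2359.8, 2896, 2454, 2247 and 2932 against 629 to 1096 (median 875) (1.60 ± 0.25). Neither gene had overlapping groups, and both calls held without the 4 WT arrays. Of 2 tested probe sets of Slc1a1, 1 was called.

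Enzymes that conjugate and clear foreign compounds also had more falls than rises. Of 56 tested, 10 were lower and 2 higher, with a median of -0.50 (-0.20 with array medians aligned), and 9 of the lower calls held with each array left out and 5 without the 4 WT arrays. Ugt2b5, a glucuronosyltransferase, gave 51.5, 56, 39.9, 18.7 and 73.7 in adenoma and 374 to 884 (median 556) in WT (-3.35 ± 0.30, limma adjusted p = 5.64e-06). The sulfotransferase Sult1d1 gave 71, 7.3, 35.9, 15.4 and 81.7 against 239.9 to 472 (median 386) (-2.58 ± 0.28), and the carboxylesterase Ces1d gave 33.7, 130.1, 45.2, 32.4 and 129.8 against 354 to 621 (median 424) (-2.62 ± 0.34). The groups did not overlap in any of the 3. The glutathione transferase Gstt1 (-1.73 ± 0.25) fell, as did Maoa, which oxidises serotonin (-2.83 ± 0.47), for which without the 4 WT arrays the adjusted p was 0.0562. The retinal dehydrogenase Aldh1a1 fell as well (-1.72 ± 0.39). Cytochrome P450 genes had 1 call among 31, the rise of Cyp1b1, beside 3.24% of all genes called higher. This form, found outside the liver, rose from 19.4 to 69.1 (median 30.9) in WT to 1362, 278, 442, 399.5 and 670.5 in adenoma (3.34 ± 0.36).

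Brush border enzymes, which finish digestion on the microvilli, had 4 of 14 lower, beside 3.30% of all genes, and none higher. Their median was -1.03. The 4 calls held with each array left out and none held without the 4 WT arrays, where the median was -0.46. Enpep, the glutamyl aminopeptidase, gave 1722, 113, 766, 127 and 970.5 in adenoma and 2097 to 11237 (median 5382) in WT (-3.36 ± 0.69, limma adjusted p = 0.00779; without the 4 WT arrays 0.0979). The dipeptidase Dpep1 gave 126, 124, 212, 34.4 and 180.3 against 257 to 1011 (median 554) (-2.13 ± 0.41), and the dipeptidyl peptidase Dpp4 gave 313, 265, 234, 171 and 178 against 468 to 747 (median 544) (-1.36 ± 0.26). Lactase (Lct) did not pass (-0.34 ± 1.05, adjusted p = 0.882).

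The 10 genes that varied most among the adenomas held Fabp1, Apoa4, Lct, Enpep and Mep1b, of lipid absorption and the brush border, and also Prp2, Cyp3a11, Dr1, Hoxa7 and Cyp4v3. Fabp1, the fatty acid binding protein of liver and gut, gave 12932, 45.7, 8565, 294 and 441 on adenoma arrays 1 to 5 and 10.4 to 5339 (median 549) in WT. The chylomicron protein Apoa4 gave 5768, 47.8, 5271, 525 and 646 against 51.5 to 4889 (median 612), and Lct 2932, 141, 2206, 182 and 162 against 82.8 to 3975 (median 737). In all 3 genes adenoma 1 and adenoma 3 were the highest of the adenomas and adenoma 2, 4 and 5 lower, and the WT arrays spread widely as well. None of the 3 was called. The mean log2 signal of 8 absorptive cell genes was 10.90, 7.30, 10.35, 8.64 and 8.85 in adenoma 1 to 5 and ran from 8.22 to 11.28 in WT. The epithelial markers, by contrast, spanned 12.51 to 13.02 in adenoma. These levels are a description with no test, and Enpep, with its highest adenoma values in adenoma 1, 3 and 5, belongs to the genes that varied.

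**Figure D5:**
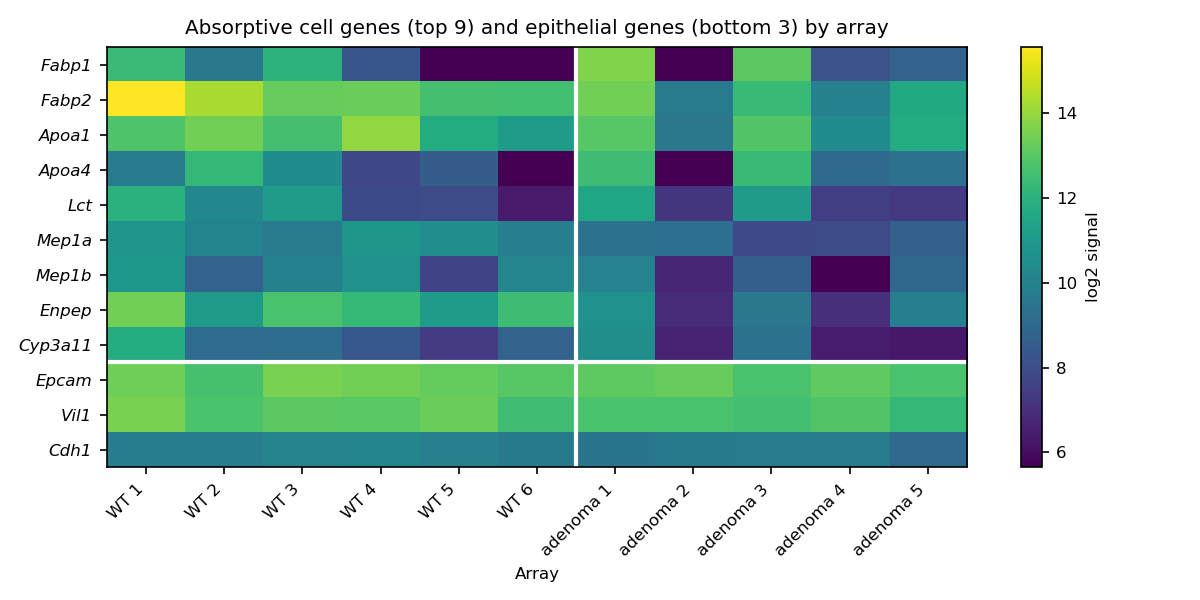
Log2 signal (colour scale, floored) of 9 absorptive cell genes and, under the white line, 3 general epithelial genes (rows) on the 6 WT and 5 adenoma arrays (columns). Fabp1, Apoa4 and Lct are bright in adenoma 1 and adenoma 3 and dark in adenoma 2, whereas Epcam, Vil1 and Cdh1 keep an even colour over the arrays.

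Several genes of antigen presentation to T cells fell. The immunoproteasome and class I genes had 5 of 15 lower and none higher, and 4 of the 5 calls held with each array left out and 1 without the 4 WT arrays. Psmb9, an interferon-induced catalytic subunit, gave 266, 168, 173, 32.4 and 192 in adenoma and 813 to 1341 (median 1125) in WT (-2.84 ± 0.37, limma adjusted p = 0.000275). Psmb8, its partner subunit, gave 352, 362, 457, 305 and 433 against 689.9 to 2924 (median 1579.7) (-1.89 ± 0.35), and the peptide transporter Tap1 gave 276, 262, 327, 233 and 342 against 529.8 to 1176 (median 714) (-1.40 ± 0.27). Beta-2 microglobulin (B2m), the light chain of class I, gave 2118, 1061, 1566, 726 and 1009 against 2771 to 5315 (median 3424) (-1.57 ± 0.31). The groups did not overlap in these 4 genes. Constitutive proteasome subunits had 27 of 34 above 0, a median of 0.40 and 1 call, Psmb5 (0.97 ± 0.25), lost with any 1 of WT 1, 2 and adenoma 1, 2, 3, 5 left out (adjusted p = 0.0639 to 0.104). Of 12 class II genes 3 were lower, beside 3.30% of all genes, with a median of -1.06. Of these calls 1 held with each array left out and 0 without the 4 WT arrays. In this list H2-Ab1 gave 156, 155, 414, 209.7 and 153 in adenoma and 319 to 952 (median 705) in WT (-1.63 ± 0.37).

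Some markers of lymphocytes were called lower. Of 23 T cell and intraepithelial lymphocyte markers 2 were, beside 3.30% of all genes, and 1 call held with each array left out and 0 without the 4 WT arrays. Their mean log2 level was 6.49 to 6.74 in adenoma and 6.67 to 7.58 in WT. Il2rb, a receptor chain for interleukins 2 and 15, gave 39, 22.2, 23.5, 32.3 and 49 in adenoma and 114 to 282 (median 152) in WT (-1.71 ± 0.29). It was under the floor on all adenoma arrays, so it passed the filter only through WT. Of 17 B and plasma cell markers 4 were lower and 3 higher, beside 3.30% and 3.24% of all genes. Of these calls 2 and 1 held with each array left out and 0 and 1 without the 4 WT arrays. The list ran from 7.46 to 8.05 in adenoma and from 7.79 to 8.34 in WT. Jchain, which joins IgA dimers, gave 158, 189, 261, 212 and 165 in adenoma and 407 to 1069 (median 669) in WT (-1.79 ± 0.28). The epithelial carrier of such IgA, Pigr, gave 19344, 19321, 36239.5, 28309 and 19083 against 54116 to 147763 (median 89667) (-1.91 ± 0.34). The immunoglobulin segments Igha (-3.26 ± 0.53) and Igkv6-23 (-3.76 ± 0.62) fell, and lie outside the rule for named genes. The part of lymphocytes in the falls of antigen presentation was not tested. Ccl25, the chemokine by which the small intestine draws in T cells, gave 256, 101, 202, 29.1 and 239 in adenoma and 534 to 3032 (median 906) in WT (-2.78 ± 0.50), and the neutrophil chemokine Cxcl1 rose from 5.7 to 252 (median 54.2) in WT to 777, 289, 701, 504 and 877 in adenoma (2.87 ± 0.43).

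Mast cell proteases rose steeply. Mcpt2, a chymase of mucosal mast cells, gave 3766, 1162, 3187, 3309.9 and 3372 in adenoma and 20.6 to 138 (median 62.3) in WT (5.27 ± 0.37, limma adjusted p = 7.31e-07). Mcpt1, the other mucosal chymase, gave 2302, 1195, 1768, 2351 and 1653 against 16.4 to 370.0 (median 58.1) (4.39 ± 0.47), and carboxypeptidase A3 (Cpa3) gave 1218, 259, 411, 306 and 365 against 14.1 to 161 (median 25.7) (2.81 ± 0.42). Every adenoma array was above every WT array in the 3 genes. The chymases are close paralogs, and probe sets can share signal between them. These were the 3 calls among 11 mast cell markers, and all held with each array left out and without the 4 WT arrays. The receptors Kit (0.48 ± 0.39) and Fcer1a (0.89 ± 0.40), the connective tissue tryptase Tpsb2 (-0.54 ± 0.36) and Gata2 (0.09 ± 0.32) did not pass. The mean log2 level of the list was 7.93 to 8.79 in adenoma and 6.67 to 7.59 in WT.

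Markers of goblet and enteroendocrine cells were called lower more often than higher, and those of Paneth and tuft cells were not. The median log2 difference was nonetheless alike in goblet (-0.48), enteroendocrine (-0.61) and Paneth markers (-0.52), against -0.13 over all genes. Of the 11 Paneth markers 3 lay above 0. Tuft cell markers had a median of 0.17. Of 9 markers of tuft cells, a further cell type of the lining, 3 were higher and none lower. Of these 3 calls 2 held with each array left out and 2 without the 4 WT arrays. Of 17 goblet cell markers 5 fell and 1 rose, beside 3.30% and 3.24% of all genes. With each array left out 4 of the falls and the rise held, and without the 4 WT arrays 2 falls held. Clca1, a secreted protein of goblet cell mucus, gave 8045, 6229, 7790.5, 2779 and 5260.1 in adenoma and 27730.3 to 53642 (median 33987) in WT (-2.70 ± 0.32, limma adjusted p = 8.68e-05), although only 1 of its 2 tested probe sets was called. Fcgbp, the IgG Fc binding protein of mucus, gave 15691, 8387, 20421, 13674 and 12717 against 27859 to 72709.5 (median 49599.8) (-1.78 ± 0.32), and the mucus lectin Zg16 gave 5113, 1127, 4256, 2008 and 2644 against 7454 to 19260.1 (median 9289) (-1.98 ± 0.40). The groups did not overlap in the 3 genes. The trefoil factors, small proteins of mucosal repair, moved apart. Tff2, the gastric form, gave 398, 303, 3662, 410.3 and 1309 in adenoma and 26.8 to 142 (median 67.4) in WT, with adenoma 3 the highest (3.36 ± 0.56; without the 4 WT arrays adjusted p = 0.122), and Tff3, the intestinal form, had -1.52 ± 0.43 (adjusted p = 0.0473), a call lost when single arrays were left out. Dll1, the Notch ligand of secretory progenitors, fell too (-1.98 ± 0.34).

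Enteroendocrine markers had 4 of 20 lower, beside 3.30% of all genes, and none higher, with a median of -0.61. Of the 4 calls 2 held with each array left out and 1 without the 4 WT arrays. Chromogranin B (Chgb), of hormone granules, gave 1675, 473, 1096, 411 and 731 in adenoma and 2729 to 5502 (median 4021) in WT (-2.34 ± 0.37), and the prohormone convertase Pcsk1 gave 65.3, 29.2, 85.4, 32.5 and 46.8 against 148 to 248 (median 171) (-1.64 ± 0.26). Both were lower on every adenoma array. The hormones Gip (-1.85 ± 0.45) and ghrelin (Ghrl, -1.24 ± 0.34) were called lower. The call of Gip was lost with any 1 of adenoma 1, 2, 3, 5 left out (adjusted p = 0.0517 to 0.0591), and that of Ghrl with any 1 of WT 1, 2, 3, 5 and adenoma 1, 2, 3, 4, 5 left out (adjusted p = 0.0604 to 0.0997). Ghrl was under the floor on all adenoma arrays and passed the filter only through WT. Among 11 Paneth cell markers, the antimicrobial lectin Reg3a fell, with 644, 272, 362, 154 and 309 in adenoma and 1336 to 6388 (median 4327) in WT (-3.39 ± 0.47), and Pla2g2a and Mmp7 rose. These 3 held with each array left out and 2 without the 4 WT arrays. The Paneth cell defensin Defa23, outside that list, gave 718, 1262, 1812, 1846 and 1851 against 3399 to 22229 (median 8518) (-2.62 ± 0.42; without the 4 WT arrays adjusted p = 0.0875). Defensin genes are near-identical, and probe sets can share signal between them.

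Of 12 smooth muscle markers, cells of the tissue under the epithelium, 2 fell, beside 3.30% of all genes. Of these calls 1 held with each array left out and 0 without the 4 WT arrays. The list's mean log2 level was 8.06 to 8.72 in adenoma and 8.82 to 9.44 in WT, with no overlap. The smooth muscle myosin Myh11 gave 56.9, 46.7, 163, 221 and 104 in adenoma and 367 to 1272 (median 482) in WT (-2.47 ± 0.43), and Acta2 had -1.68 ± 0.46, a call lost with any 1 of WT 1, 2, 3, 5, 6 and adenoma 1, 2, 3, 5 left out (adjusted p = 0.0616 to 0.125). The matrix protein tenascin X (Tnxb) gave 20.8, 18.4, 36.1, 276 and 76.3 against 379 to 1112 (median 504) (-2.99 ± 0.46), with adenoma 4 the highest of the adenomas. The part of muscle cells in the fall of Lama2 and Tnxb was not tested.

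Further large changes lay in genes outside the lists. Htra1, a secreted serine protease, gave 2884, 2679, 1691, 2193 and 2866 in adenoma and 228 to 411 (median 283) in WT (3.03 ± 0.27). Cidea, a lipid droplet protein, gave 819, 849, 1355, 1157 and 792 against 28.9 to 135 (median 85.8) (3.55 ± 0.33), and Phlda1, a pleckstrin homology domain protein used as a marker of intestinal stem cells, gave 2342, 5345, 2555, 1691 and 2382 against 206 to 415 (median 324) (3.08 ± 0.31). These 3 genes had no overlap and held their calls without the 4 WT arrays. Spock2, a testican of the matrix, was under the floor on all WT arrays and gave 319, 506, 385, 204 and 301 in adenoma, at least 6.52-fold higher. Robo1, a guidance receptor, was under the floor on all WT arrays as well and at least 4.67-fold higher. On the lower side, Gsdme, a pore-forming gasdermin, gave 89.7, 5.6, 33.1, 10.7 and 45 in adenoma and 248 to 483 (median 339) in WT (-2.56 ± 0.28). Clec3b, tetranectin, was under the floor on all adenoma arrays and gave 90.8 to 573 (median 344) in WT, at least 5.53-fold lower in adenoma. Spock2, Robo1 and Clec3b passed the filter only through the group where they are high. Usp2, a deubiquitinase under clock control, gave 303, 208, 252, 283 and 55.9 against 746 to 1669 (median 1322) (-2.75 ± 0.41; without the 4 WT arrays adjusted p = 0.0985). The stress-responsive sestrin Sesn1 gave 252, 124, 80.5, 191 and 238 against 406 to 1205 (median 929.6) (-2.37 ± 0.36).

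Probe sets of the same gene did not always tell the same story. Of 1385 genes with several tested probe sets, 160 had at least 1 called. In 32 all were called in the same direction, in 128 some were not called, and 0 genes had probe sets called in opposite directions. Basp1 had 1.16 ± 0.28 by its brightest probe set and 4.63 ± 0.50 by the other. Ly6e had 1.90 ± 0.44 by the brightest and -1.20 ± 0.46 by the other. Enpep had -3.36 ± 0.69 and -0.16 ± 0.26, and Maoa -2.83 ± 0.47 and -0.71 ± 0.33. Probe sets called in the same direction also differed in size. S100g had 5.94 ± 0.44 and 3.97 ± 0.41, Lamb3 4.64 ± 0.34 and 2.76 ± 0.48, and Reg3a -3.39 ± 0.47 and -2.30 ± 0.31. Anxa1 had 5.12 ± 0.28 by the brightest, and 5.04 ± 0.29 and 1.42 ± 0.38 by the others. Where probe sets differ, the values in the text are those of the brightest.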

How the data were processed

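Each array came with a linear intensity for each of 12488 probe sets, as the authors deposited it. The software and scaling behind them: not given in the sources used here. Trimmed means (2% off either end) ran from 500.31 to 500.43 over the arrays, so the values were not rescaled. The median signal of an array was between 144.8 and 234.2. No pair of arrays held identical values. Of the probe sets, 66 were controls, 1193 had no symbol in the platform annotation and 396 had several; 2089 with 1 symbol were too dim to test. Groups came from the sample titles. Floored log2 values were fitted with limma (version 3.58.1, under R 4.3.3) by lmFit and eBayes (2 groups, 9 residual degrees of freedom, two-sided), with Benjamini-Hochberg adjustment over 8744 probe sets. A gene took the probe set with the highest mean. The fit was tested on simulated data. Named genes were the 15 largest rises and falls without immunoglobulin and T cell receptor segments and unnamed clones, up to 4 genes per list by p, 15 per direction outside the lists by p, 6 with disagreeing probe sets, the 10 most variable among adenomas, a fixed set of tumour genes and all members of 6 families; others are named only as list members, or as said beside them. The members, lists and rules were chosen with earlier results of these data known. A total of 27 alternatives were run, 1 of them chosen after seeing the data. Promoters are RefSeq's. Plots used Python 3.11.15 and matplotlib 3.10.9.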

Additional observations from a re-analysis of the deposited data

Results flagged for a closer look

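In 9 of 120 sets of arrays (60 genes of the 15 largest and 15 clearest changes per direction, in each group) 1 array lay far from the rest by Dixon's criterion. Chance alone flags about 1 in 20 such sets. Mcpt2 was 1162 in adenoma 2, with the next adenoma array at 3187. Psmb9 was 32.4 in adenoma 4 against 168.5 in the next, and Ocm 86.5 in adenoma 4 against 207.3. Usp2 was 745.7 in WT 6, with the next WT array at 1268, and 55.9 in adenoma 5, with the next adenoma array at 208. Mcoln2 was 752 in WT 5 against 1267 in the next, and Aqp1 75.2 in WT 1 against 148.6. Slc51a was 3178 in WT 4, with the next array at 1337, and Ly86 180.2 in adenoma 3, with the next at 70.7. In each of these genes the adenoma and WT arrays still did not overlap.

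Probe sets with no single gene symbol, which the comparison left out, also differed: of 1143 tested, 95 were called, 29 higher in adenoma and 66 lower.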

How the results depend on the processing

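Of the 207 called genes under the naming rule, 11 stayed past the threshold under all 27 alternatives (Adam8, Anxa1, Cdh5, Cdkn1c, Clu, Ctse, Igfbp1, Mcpt2, Saa3, Slc1a1 and Ugt2b5). Directions held except for Aqp1 (0.65 with the floor at the 10th percentile and 0.36 with a pseudocount of 50 in place of the floor) and, once the Gapdh ratio was a covariate, Krt7 (-0.013) and Krt18 (-0.42). The brightest probe set was chosen anew under each setting. For Aqp1 the positive values come from another of its probe sets, so they show that its probe sets differ. The number of genes called higher and lower, 230 and 234 as reported, was 394 and 127 with array medians aligned, 355 and 428 with array weights, 139 and 103 with a spike-in covariate, 12 and 2 with a Gapdh ratio covariate, 106 and 49 without the 4 WT arrays that had high spike-in signal, and 106 and 46 without these and adenoma 4, a fit chosen after seeing the data. Quantile normalization gave 277 and 160. The number of probe sets, 274 and 290 as reported, was 459 and 149 with array medians aligned, 416 and 541 with array weights, 163 and 114 with the spike-in covariate, 15 and 2 with the Gapdh covariate, 128 and 58 without the 4 WT arrays, 129 and 57 without these and adenoma 4, and 187 lower after quantile normalization. The fits without high spike-in arrays rest on fewer samples; the other causes were not tested. Leaving out 1 array at a time gave 155 to 250 genes higher and 140 to 267 lower, and 187 to 293 probe sets higher and 166 to 329 lower. With the replicate numbers of the titles as a block, 377 genes were called, 184 higher and 193 lower, 321 of them shared with the fit as reported. Same-numbered arrays correlated in their deviations at -0.27 to 0.22. Arrays of different numbers were not compared in this way, so these values cannot decide whether arrays were paired. The fit as reported used no pairs. Genes at the floor in a group are limited by signal over background.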

Other observations

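Several genes outside the lists completed the rises. The calcium-dependent protease Capn2 gave 1279, 1019, 815, 1134 and 1682 in adenoma and 38.3 to 213 in WT, and Padi4, which converts arginine to citrulline in proteins, gave 498, 430, 658, 785 and 354 against 16.8 to 188. Tubb6, a beta tubulin, rose by 2.79 ± 0.30 and Fxyd3, a regulator of the sodium pump, by 2.93 ± 0.36. Minpp1, an inositol phosphate phosphatase, rose by 2.53 ± 0.27 and Tmem45a by 3.10 ± 0.39. The interferon-induced membrane protein Ifitm3 rose by 2.87 ± 0.36. Of 33 interferon-induced genes 2 were called higher and 4 lower, beside 3.24% and 3.30% of all genes. The 2 higher calls held with each array left out and none of the 4 lower calls did.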
